A study of Saccharomyces cerevisiae with 7 samples.

Results

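Glucose-limited yeast cultures that also received galacturonic acid were compared with cultures on glucose alone, gene by gene. The comparison rests on 2 galacturonic acid arrays and 3 control arrays. Its genes are those of Saccharomyces cerevisiae with a probe set annotated to that gene alone, and where a gene had several, the brightest on average over the 7 arrays of the series was taken. A gene was tested if it read above an intensity of 12 on at least 2 of the 7 arrays. Of 5656 genes with such a probe set, 5220 were tested and 436 were not.

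Every culture was an aerobic chemostat of CEN.PK113-7D, a haploid, prototrophic laboratory strain of mating type a. A chemostat is fed at a fixed rate, which sets how fast the cells grow, and here the scarce nutrient was glucose. In every group the medium held 7.5 g/l glucose at pH 3.5, the temperature was 30 °C and the dilution rate 0.1 per h. Control medium had no further addition, and the galacturonic acid medium held 10 g/l of that acid. The medium behind 2 other arrays held 0.23 g/l galactose. The galactose arrays entered the fit, where they helped to estimate each gene's spread, and some of their values are set beside the others below. Where they are not given, a gene may have differed with galactose as well. Each array carries its own code in its title, and the labels do not say whether a code names a culture or an array. Control and galacturonic acid codes begin with EH and both galactose codes with MA, so galactose arrays also differ in code series. Nothing further is said of how replicates were made. The p-values thus measure only the spread between these arrays, which may be partly technical. RNA came from whole cultures, so a change in every cell cannot be told apart from a change in a share of the cells.

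Galacturonic acid is the main building block of pectin, a polysaccharide of plant cell walls. It resembles galactose but carries an acid group, and S. cerevisiae is not known to use it as a carbon source. Galactose itself enters glycolysis through the Leloir pathway, whose genes are shut off until the sensor Gal3 frees the activator Gal4 from its inhibitor Gal80. Yeast limited for glucose respires, keeps genes for other carbon sources partly switched on and carries a raised level of stress and reserve genes.

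The deposited values are linear intensities whose trimmed mean was close to 150.1 on every array. Replicates were compared first. Across the tested genes, which are not independent of each other, log2 intensities of any pair of control arrays correlated at 0.951 to 0.973 (Pearson's r). The galacturonic acid arrays correlated at 0.976 and the galactose arrays at 0.818. Replicate SDs on the log2 scale had a median of 0.297 in control, 0.166 with galacturonic acid and 0.517 with galactose. Control probe sets for the 3' and 5' ends of actin (ACT1) gave ratios of 19.8 and 306 on the galactose arrays, against 1.07 to 1.34 on the other 5. The 5' set itself read 111.3 and 10.5 on the galactose arrays, against 2278.1 to 2883 on the other 5. How far low galactose readings below, such as those of DAK2, PMA2 and AQY2, share this low signal was not tested. The fit shares one spread per gene over all groups, so counts without the galactose arrays are given beside the main ones.

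With limma, 46 genes rose and 75 fell with galacturonic acid at an adjusted p under 0.05, which is 0.881% and 1.44% of the genes tested. Each count of called genes in a list below is to be read against these shares. Both galacturonic acid arrays lay above, or both below, all 3 control arrays in each of these 121 genes. Groups that do not overlap were common, with 20.2% of tested genes above control in this way and 21.9% below, and 651 genes had an unadjusted p under 0.05. The median log2 difference over all 5220 genes was -0.01, and 478 genes differed by more than 1 on the log2 scale, 207 upward and 271 downward. When only the control and galacturonic acid arrays were fitted, 101 genes rose (1.93%) and 155 fell (2.97%), among them 117 of the 121. ADH2, COS10, MFA1 and OSW2 were the 4 that this fit did not call. List counts below that leave out the galactose arrays are to be read against the larger shares of this fit. Few calls survived the loss of an array: without control array 1, 2 or 3 the fit called 11, 2 or 3 genes higher and 13, 1 or 7 lower, and without either galacturonic acid array it called DAK2 alone. DAK2 was the only gene called in all 5 of these fits, and 97 of the 121 were called in none of them.

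Rises and falls started from different levels. Of the 46 genes that rose, 36 (78.3%) had a control mean under 50 intensity units, against 2 of the 75 that fell (2.67%) and 31.9% of all tested genes. For 13 of the 46, all 3 control arrays lay at or below the floor of 12, to which values were raised before the log was taken, so that their folds are lower bounds, and in a further 10 this held for 1 or 2 control arrays. In 3 of the genes that fell, CIS1, SDP1 and AQY1, both galacturonic acid arrays lay at or below the floor, and in a further 6 one of them did. The smallest called fall was 1.25 on the log2 scale, so a gene near the floor in control had little room to be called lower. The difference in starting level is thus partly set by the floor, and how far was not tested. The gap between the nearest arrays of the 2 groups exceeded 1 on the log2 scale in 115 of the 121 genes and 2 in 46 of them, with DAK2 widest at 5.23.

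**Figure D1:**
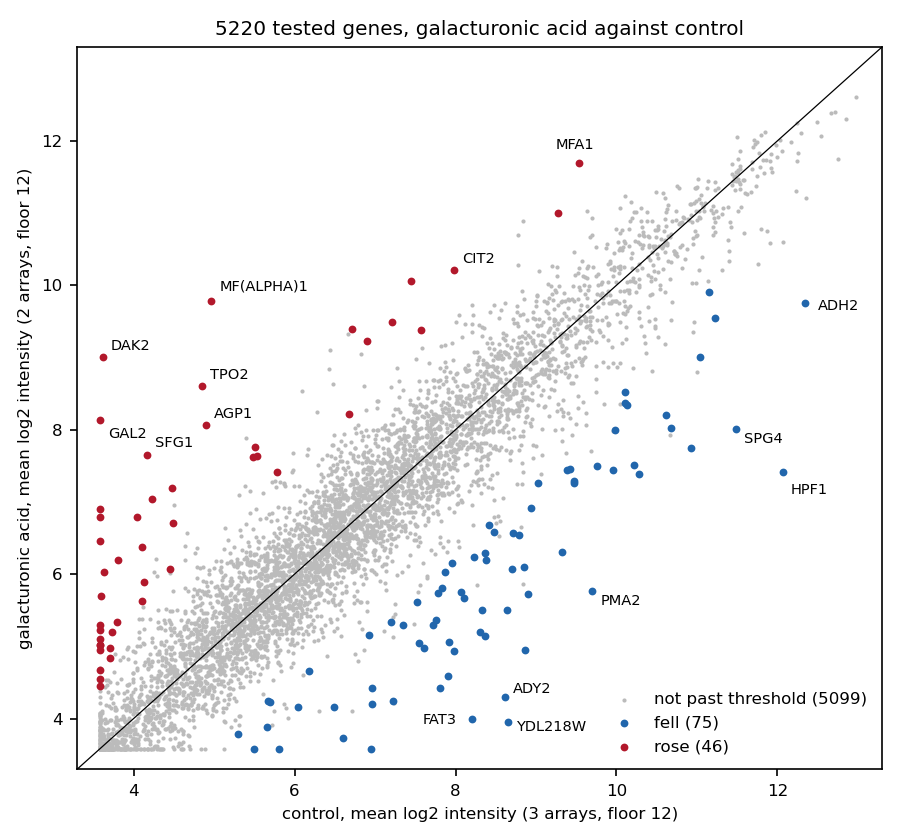
Mean log2 intensity with galacturonic acid (vertical axis, 2 arrays) against control (horizontal axis, 3 arrays) for the 5220 tested genes, with values under 12 raised to 12 and a line where both are equal. The 46 genes that rose (red) lie mostly at the dim left end, while the 75 that fell (blue) come from the middle and upper range of control levels. Genes near the floor in control had little room to fall.

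Of all tested genes DAK2 and GAL2 had the lowest adjusted p, and both read at or near the floor in control. DAK2 (YFL053W), an isoform of dihydroxyacetone kinase, the enzyme that phosphorylates the triose dihydroxyacetone, read 12.9, 10.2 and 11.2 on the control arrays and 543.7 and 484.3 with galacturonic acid. With both control arrays under the floor raised to 12, the rise was at least 41.7-fold (log2 5.38 ± 0.26 SE, limma adjusted p = 0.000106). On the galactose arrays DAK2 read 4.9 and 1.8, below the floor. Its sister gene DAK1 had a difference of -0.17 ± 0.32 and did not pass. Among the 11 tested genes of dihydroxyacetone and glycerol metabolism DAK2 was the only one called, and the list median was -0.09. GCY1, a putative glycerol dehydrogenase whose product is dihydroxyacetone, was at 0.66, the glycerol 3-phosphate dehydrogenase GPD1 at -0.87 and the glycerol transporter STL1 at -1.79 (adjusted p = 0.0754).

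The structural genes of galactose use rose from below the floor. GAL2 (YLR081W, the galactose permease) read 8.6, 7.0 and 7.9 in control, 263.9 and 299.5 with galacturonic acid, and 1126.6 and 1069.6 on the galactose arrays. GAL10 (YBR019C, the epimerase) read 3.8, 2.6 and 5.0, then 104.9 and 136.9, then 399.6 and 810.4. For GAL7 (YBR018C, the uridylyltransferase) the values were 4.8, 4.7 and 2.7 in control, 124.1 and 98 with galacturonic acid and 340.3 and 286.8 with galactose. In each of the 3 genes both galacturonic acid arrays stood clear of every control array, as in all 121 called genes. Both galactose arrays stood higher again. GAL1 (YBR020W, galactokinase) read 0.5, 2.4 and 3.5, then 73.8 and 104.7, then 154.9 and 178.4. The rises were at least 23.4-fold for GAL2, 9.99-fold for GAL10, 9.19-fold for GAL7 and 7.33-fold for GAL1 (limma adjusted p = 0.000489, 0.00721, 0.00437 and 0.00488). GAL7, GAL10 and GAL1 are neighbours on chromosome II. The galactose and galacturonic acid cultures share the same controls, the doses differ, and the 3' to 5' ratios of the galactose arrays are those given above, so the values are set side by side without a test.

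The regulators of the pathway did not pass. GAL3, the sensor, was at 1.26 ± 0.38 and GAL80, the inhibitor, at 0.90 ± 0.44, (limma adjusted p = 0.181 and 0.469). The activator GAL4 was at 0.26, the glucose repressor MIG1 at -0.03 and MTH1, a corepressor of hexose transporter genes, at 0.70. PGM2, the major phosphoglucomutase that links galactose use to glycolysis, was at -1.31 and its isoform PGM1 at 0.27. Of the 12 tested genes of this list 4 rose and none fell, with a median of 0.80.

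**Figure D2:**
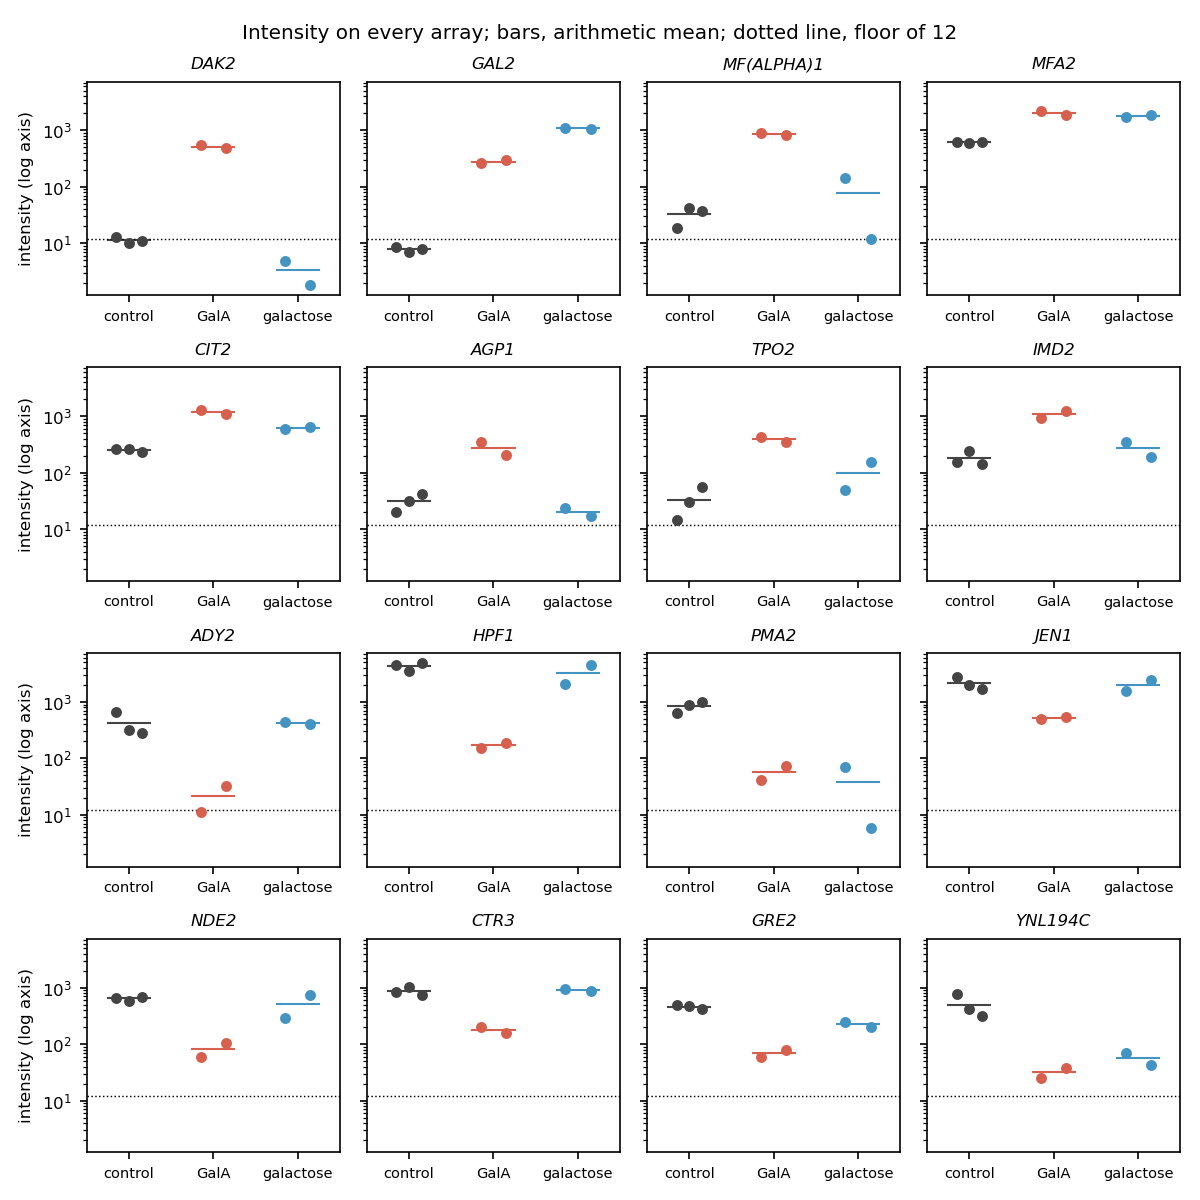
Intensity on every array (log axis) for 16 genes, with control arrays in black, galacturonic acid (GalA) in red and galactose in blue, a bar at each group's arithmetic mean and a dotted line at the floor of 12. The 8 genes of the upper rows rose with galacturonic acid and the 8 of the lower rows fell. DAK2 lies near or below the floor on control and galactose arrays and averages 514 with galacturonic acid, and GAL2 is highest on the galactose arrays.

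Some genes of mating and of cell fusion rose as well. Haploid a cells secrete a-factor and answer alpha-factor, and a signal through the receptor Ste2 and a kinase cascade normally switches on genes for agglutination and fusion. Of 31 tested genes of this list 10 rose and none fell, with a median of 1.33 (the list was chosen knowing earlier results). Of all tested genes 0.881% rose and 1.44% fell. When both galactose arrays were left out, 12 rose, against 1.93% of all tested genes in that fit. PRM1 (YNL279W), a membrane protein of fusing cells, read 14.3, 20.5 and 22.7 in control and 131.7 and 130.9 with galacturonic acid, 6.98-fold higher (adjusted p = 0.012). FUS1 (YCL027W), needed for cell fusion, went from 7.6, 13.0 and 12.1 to 67.7 and 63.4. AGA1 (YNR044W), the anchor of a-agglutinin, read 108, 101.7 and 105.3 against 706.1 and 636.2. In all 3 genes the galacturonic acid arrays lay close together and far above every control array.

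The pheromone genes followed. MFA2 (YNL145W), which encodes a-factor, read 632.2, 604.3 and 620 in control and 2218 and 1900.5 with galacturonic acid, a difference of 1.73 ± 0.26 (limma adjusted p = 0.0175). Both galactose arrays, at 1711.8 and 1882.6, also lay above every control array. The other a-factor gene, MFA1, had a spread-out control group of 1341.3, 553.9 and 553.7 against 3837.3 and 2858.6. FIG2 (YCR089W), an adhesin induced by pheromone, went from 19.1, 20.0 and 29.4 to 117.6 and 93.8, and PRM6, outside the list, from below the floor to 20.8 and 22.8. AGA2 and ASG7 rose by 2.34 and 1.54, and FIG1 went from below the floor to 35.1 and 39.9. Among the signalling parts SST2, which dampens the receptor's G protein, rose by 2.75 ± 0.55. STE4, GPA1, STE5, STE11, STE7 and STE12 did not pass and lay between -0.32 and 0.48. BAR1, the protease that destroys alpha-factor, was at 2.65 ± 0.65 and the receptor gene STE2 at 2.16 ± 0.79, both called when the galactose arrays were left out (adjusted p = 0.0194 for each).

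MF(ALPHA)1 (YPL187W) encodes alpha-factor and is normally silent in a cells. It read 18.7, 42.8 and 37.9 in control and 912.4 and 844.7 with galacturonic acid, and 141.5 and 11.9 on the galactose arrays. The rise was 28.1-fold (log2 4.82 ± 0.90, limma adjusted p = 0.0365). When any control or galacturonic acid array was left out the difference stayed between 4.45 and 5.04 and did not pass. STE3, the a-factor receptor of alpha cells, read 18.6, 35 and 23.9 against 72.5 and 73.8, which did not pass (1.55 ± 0.51, adjusted p = 0.219), and the alpha-agglutinin gene SAG1 was at 0.22. The neighbour of MF(ALPHA)1 on chromosome XVI, UIP4, fell from 453.4, 351.9 and 448.4 to 48 and 95. YGR109W-B, a reading frame of the retrotransposon Ty3, whose transcription follows pheromone signalling, went from 120.3, 164.7 and 164.3 to 758.4 and 683.9 (log2 2.28 ± 0.32, adjusted p = 0.012). On this probe set the galactose arrays, at 394.2 and 584.2, also lay above every control array. A probe set annotated to YIL082W-A as well read 1.3 and 2.9 with galactose, against 27.1, 32.4 and 34.1 in control. Whether Ty3 rose with galactose is thus uncertain, and a tie to pheromone signalling was not tested. Ty3 has near-identical copies, so the element behind the signal of YGR109W-B is uncertain. Of 21 other tested probe sets of this frame, 20 were higher with galacturonic acid and 8 passed in a fit of all probe sets.

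Permease genes for acetate and lactate fell, as did a relative of the acetate permease gene. ADY2 (YCR010C), the acetate permease, read 672.7, 323.3 and 277.2 in control and 11.2 and 32.4 with galacturonic acid. On the galactose arrays it stayed at 449.6 and 410.3. ATO3 (YDR384C), of the same membrane family, went from 2178.7, 1171.7 and 1725.4 to 192.9 and 350.2, and the lactate permease JEN1 (YKL217W) from 2755, 1991.7 and 1693 to 496.7 and 534.5. With galactose ATO3 read 1061.2 and 632.9, below every control array, and JEN1 1557 and 2406.6. No galacturonic acid array reached the lowest control array in any of these genes, as in all called genes that fell. Control array 1 was the highest of its group in all 3. The differences were -4.31 ± 0.52, -2.66 ± 0.41 and -2.03 ± 0.33 (limma adjusted p = 0.00721, 0.0202 and 0.0248). ADH2, the alcohol dehydrogenase that consumes ethanol, fell by 2.59 ± 0.50, but its galacturonic acid arrays disagreed at 459.6 and 1639.4. Without array 1 or 2 of that group its difference was -1.67 or -3.50, each short of the threshold.

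Most enzymes of the same pathways did not pass. Of 23 tested genes for acetate, lactate and C2 use 4 fell and none rose, with a median of -0.38. Isocitrate lyase ICL1 and fructose bisphosphatase FBP1 were at -0.10 and -0.07, and the acetyl-CoA synthetase ACS1 at -1.47 ± 0.49 (adjusted p = 0.239). PCK1, the gluconeogenic PEP carboxykinase, went the other way: 49.2, 155.1 and 84.9 in control, 668.2 and 452.9 with galacturonic acid. Its difference of 2.67 ± 0.65 did not pass with the galactose arrays in the fit and passed without them (adjusted p = 0.0937 and 0.0414).

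Mitochondrial genes moved in both directions. NDE2 (YDL085W), a dehydrogenase that passes cytosolic NADH to the respiratory chain, read 667.7, 569.8 and 694.8 in control and 59.3 and 106.1 with galacturonic acid, 8.09-fold lower, while its isoform NDE1 was at 0.01 ± 0.29. DIC1 (YLR348C), the dicarboxylate carrier, went from 1561.9, 1096.9 and 1130.5 to 148.5 and 189.3. SHH3 (YMR118C), a mitochondrial protein like the succinate dehydrogenase subunit Sdh3, went from 275.4, 322.9 and 372.2 to 36.0 and 56.8. The nearest arrays of the groups stood apart by 2.43, 2.53 and 2.28 on the log2 scale in these 3 genes. CIT2 (YCR005C), the peroxisomal citrate synthase and the standard reporter of mitochondria-to-nucleus retrograde signalling, instead rose from 265.6, 265.1 and 231.5 to 1275.3 and 1104.9 (log2 2.23 ± 0.27, limma adjusted p = 0.00721). On the galactose arrays CIT2 read 594.3 and 652.8, also above every control array. DLD3, also a retrograde target, was at 1.40, and the signalling genes RTG1, RTG2 and RTG3 at -0.01, 0.09 and -0.29. CIT2 was the only call among 22 tested genes of the TCA cycle and retrograde response (median 0.45), and NDE2 the only one among 18 of the respiratory chain (median 0.39). PIC2, a mitochondrial phosphate and copper carrier, rose by 1.80 ± 0.33, and OM45, an abundant outer membrane protein, fell by 2.21 ± 0.36.

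Some genes of peroxisomal fatty acid breakdown fell. PXA1, a subunit of the fatty acyl importer, ECI1, an isomerase for unsaturated fatty acids, the peroxisomal catalase CTA1 and IDP3, which supplies NADPH in the peroxisome, were the 4 called of 20, all lower, with a list median of -0.97. Of all tested genes 1.44% fell. ECI1 (YLR284C) read 277.3, 287.8 and 243 in control and 46.4 and 62.9 with galacturonic acid. The thiolase POT1 and acyl-CoA oxidase POX1 were at -1.05 and -0.75 and did not pass. FAT3 (YKL187C), required for fatty acid uptake, dropped from 467.1, 263.9 and 208.6 to 11.2 and 21.3 (log2 -4.21 ± 0.45, limma adjusted p = 0.00488) and stayed at 203.2 and 283.4 with galactose. The regulators of this pathway, OAF1 and PIP2, were at 0.60 and -1.01 without passing.

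**Figure D3:**
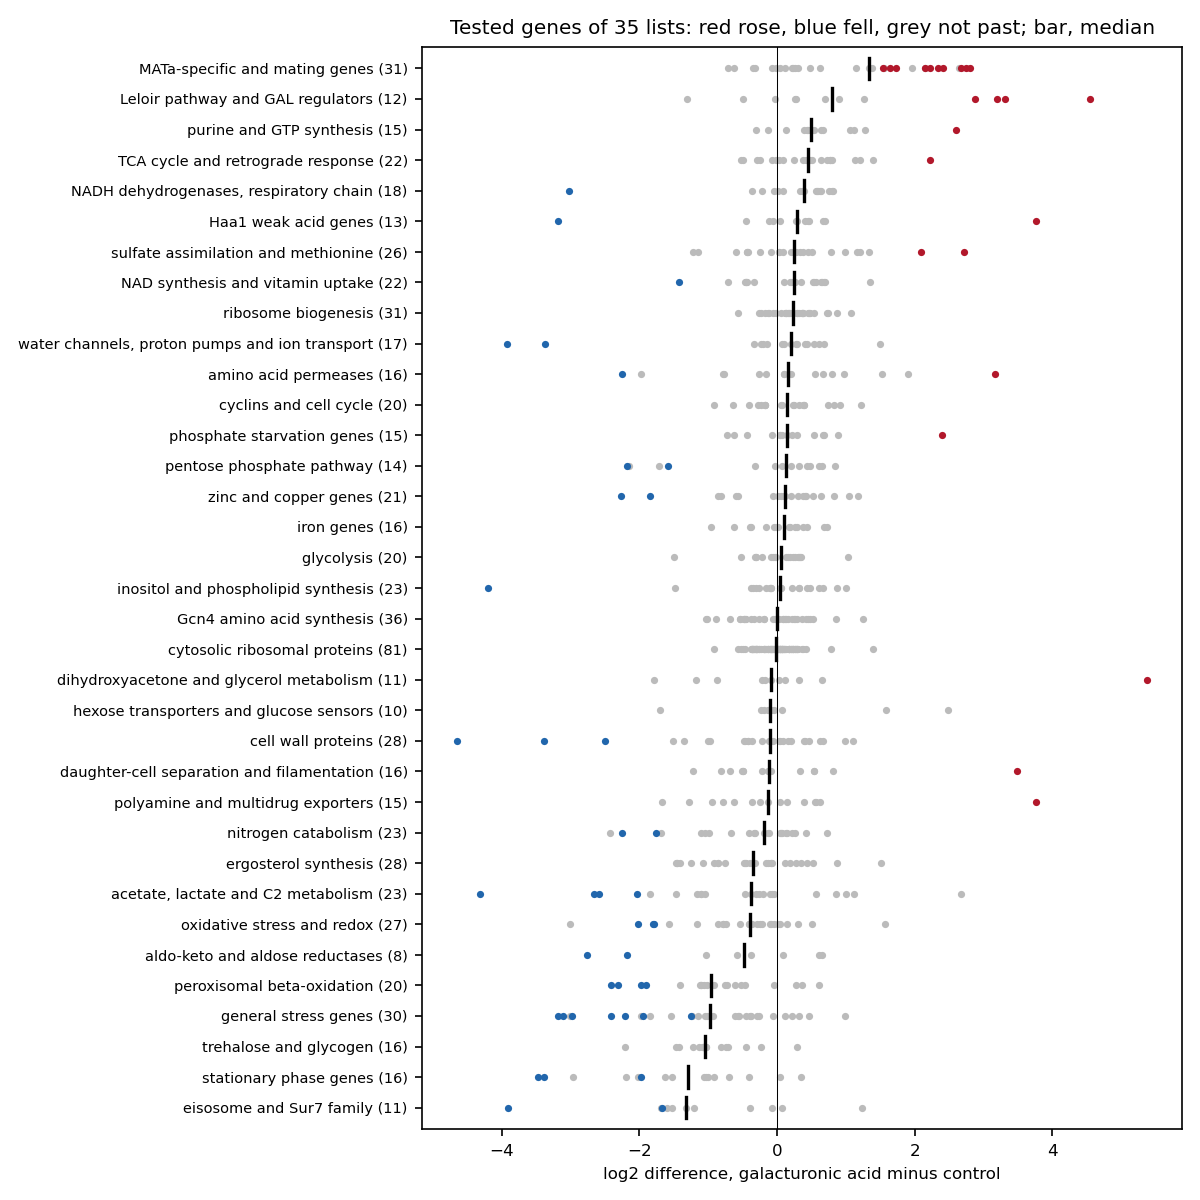
Log2 difference of each tested gene in 35 lists, ordered by list median (black bar), with genes that rose in red, fell in blue and others in grey, and the number tested in brackets. Mating genes hold the highest median, 1.33, and the eisosome, stationary phase and reserve carbohydrate lists the lowest, from -1.33 to -1.05.

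Some genes of stress protection and of the resting state fell. Of 30 general stress genes 7 fell and none rose, with a median of -0.97, and 10 fell without the galactose arrays. Of all tested genes 1.44% fell, and 2.97% without the galactose arrays. The list was chosen with earlier results known. GRE1 (YPL223C), a hydrophilin induced by drying and osmotic stress, read 1747.3, 1975.4 and 2140.6 in control and 178.7 and 259.2 with galacturonic acid (log2 -3.18 ± 0.29, limma adjusted p = 0.00423). RTN2 (YDL204W), a reticulon of the endoplasmic reticulum, went from 378.9, 296.1 and 279.3 to 32.3 and 41.4. PHM7, MSC1, OM45, DCS2 and the nicotinamidase gene PNC1 completed the 7, with differences from -2.98 to -1.25. The heat shock genes HSP26, HSP12 and HSP104 were at -1.02, -0.92 and -0.28 without passing. The cytosolic catalase gene CTT1 had a large difference, -3.02 ± 0.64, which did not pass with the galactose arrays in the fit and passed without them (adjusted p = 0.0561 and 0.00836). Those arrays read it at 47.0 and 249.3.

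In the stationary phase list 3 of 16 genes fell, against 1.44% of all tested genes, and the median was -1.30. Without the galactose arrays 7 fell, against 2.97% of all tested genes. SPG4 (YMR107W), needed for survival in stationary phase, read 4493.1, 2629.2 and 2019 in control against 151.8 and 440.7. SPS100, a spore wall protein also made in nutrient-starved cells, went from 124.4, 288.5 and 310.7 to 19.6 and 23.4. The galactose arrays read SPS100 at 46.4 and 17.2 and SPG4 at 1890.6 and 6446.2. RTC3 fell by 1.97 ± 0.28 and read 175.6 and 186.9 with galactose, also below every control array. The Hsp70 gene SSA3, expressed in starved cells and held in no list, fell from 1008.1, 974.6 and 1011.9 to 208.9 and 145.8. With galactose SSA3 read 277 and 96.5. YMR196W, also outside the lists, went from 383.7, 303.9 and 233.3 to 62.9 and 90. HBT1, YNL195C and YJR115W fell as well, with log2 differences from -3.17 to -2.70. Each of them also read below every control array on both galactose arrays, where low readings carry the limit given above for ACT1.

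Reserve carbohydrate genes read lower without passing. None of the 16 tested genes of trehalose and glycogen metabolism passed with limma, although 11 had an unadjusted p under 0.05 and 13 read lower than every control array, against 21.9% of all tested genes. The list median was -1.05. TPS1 and TPS2, which make trehalose, were at -1.03 and -1.14, and NTH2, a trehalase, was at -1.46. GLC3, the glycogen branching enzyme, was at -1.43, glycogen synthase GSY2 at -0.72 and PIG2, a targeting subunit of the phosphatase that activates glycogen synthase, at -2.20. Without the galactose arrays PIG2, GLC3 and TPS2 fell. GIP2, another regulatory subunit of that phosphatase and held in no list, fell from 55.4, 60.1 and 39.1 to 14.6 and 15.0 (log2 -1.78 ± 0.36, adjusted p = 0.048).

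Eisosomes are furrows of the plasma membrane coated by the proteins Pil1 and Lsp1. LSP1 (YPL004C) read 3150.1, 2207.4 and 1959.9 in control and 698.6 and 797.8 with galacturonic acid. YNL194C, a Sur7-like membrane protein of the same domain, went from 759.9, 421.9 and 312.9 to 25.5 and 37.7 (log2 -3.91 ± 0.46, limma adjusted p = 0.00721). Its neighbour YNL195C went from 880.1, 393.3 and 312 to 48.3 and 57.9. The galactose arrays were also below control, at 70.8 and 42.3 for YNL194C and 106.5 and 101.9 for YNL195C. Control array 1 was the highest of its group in all 3 genes, and no galacturonic acid array came near the lowest control array. Of 11 tested genes 2 fell, against 1.44% of all tested genes, with a median of -1.33. PIL1 was at -1.60 and NCE102 at -1.33. Without the galactose arrays 5 fell, against 2.97% of all tested genes, and PUN1, another member of the Sur7 family, rose. SUR7 itself was at -0.07.

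Several enzymes are encoded by a pair of related genes. Among 45 such pairs, listed with earlier results known, both genes were tested in 42. A single gene was called in 18 pairs, both in 1 pair (MFA1 and MFA2) and neither in 23. In the oxidative pentose phosphate pathway GND2 fell by 2.17 ± 0.38 and SOL4 by 1.58 ± 0.32, while the isoforms GND1 and SOL3 were at 0.32 and -0.03. GND2 (YGR256W) read 886.4, 459 and 873.3 in control and 191.2 and 128.8 with galacturonic acid. On the galactose arrays GND2 read 235.3 and 236.4 and SOL4 309 and 233.1, also below every control array. The minor isoforms NQM1 and TKL2 of transaldolase and transketolase were at -2.16 and -1.72 without passing, and TAL1 and TKL1 at 0.07 and 0.20.

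PMA2 (YPL036W), the second plasma membrane proton ATPase, read 642.9, 887.3 and 1004.4 in control and 40.9 and 73 with galacturonic acid. The difference was -3.93 ± 0.68 (limma adjusted p = 0.0312), and PMA1 was at 0.41 ± 0.97. The galactose arrays read PMA2 at 69.9 and 5.8, below every control array as well. HEF3 (YNL014W), the alternative translation elongation factor 3, went from 212.1, 186.4 and 348.3 to 16.8 and 34.7, and YEF3 was at 0.24. AQY1 (YPR192W), a water channel of spores, fell from 87.3, 145 and 150.9 to 6.2 and 6.3, both below the floor and at least 10.3-fold lower. The sister channel AQY2 read 546.2, 482.5 and 323.6 in control, 1248.2 and 1239.4 with galacturonic acid and 21.6 and 2.9 with galactose, and rose in the fit without the galactose arrays (adjusted p = 0.0317, against 0.106 with them). In further pairs TSA2, OYE3, IDP3, RTN2, DCS2 and CTR3 fell and TSA1, OYE2, IDP2, RTN1, DCS1 and CTR1 lay between -0.59 and 0.51. In other pairs the partner without a call differed the same way as the called gene: CTT1 was at -3.02 beside CTA1 at -1.98, GNP1 at 1.90 beside AGP1 and GAL3 at 1.26 beside GAL1. Whether the 2 genes of a pair differed was not tested, and probes of close relatives such as PMA1 and PMA2 or ADH1 and ADH2 may share signal.

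**Figure D4:**
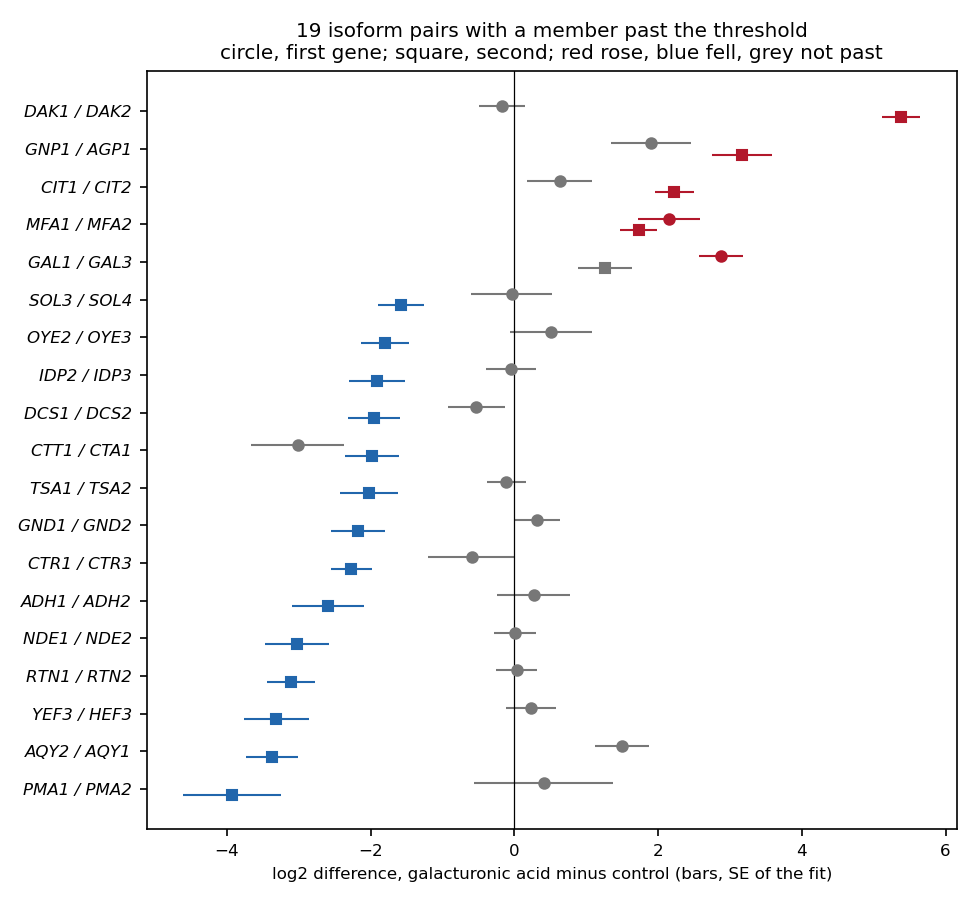
Log2 difference between galacturonic acid and control (bars, standard error of the fit) for the 19 pairs of related genes in which a member passed the threshold, with the first-named gene as a circle and the second as a square, red for a rise, blue for a fall and grey for neither. Of the grey genes, CTT1, GNP1, AQY2 and GAL3 lie more than 1 from 0 and the others between -0.59 and 0.63.

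Amino acid permease genes moved in both directions. AGP1 (YCL025C), a broad amino acid permease induced by external amino acids, read 20.5, 31.3 and 41.1 in control, 347.8 and 205.8 with galacturonic acid and 23.5 and 17.2 with galactose. GAP1 (YKR039W), the general permease that is repressed by good nitrogen sources, went from 448.3, 441 and 441.1 to 72.1 and 120.9. Their differences were 3.17 ± 0.41 and -2.25 ± 0.43 (limma adjusted p = 0.0101 and 0.0385). GNP1, TAT2 and SAM3, for glutamine, aromatic amino acids and S-adenosylmethionine, were at 1.90, 1.53 and 0.97 and did not pass. They did so without the galactose arrays, where 4 permeases rose and 2 fell of 16. In that fit 1.93% of all tested genes rose and 2.97% fell. PUT1, the first enzyme of proline breakdown, fell from 95, 155.8 and 119.9 to 33.2 and 38.3. Of 23 nitrogen catabolism genes GAP1 and PUT1 fell, with a median of -0.19, and the regulators GLN3, GAT1 and GZF3 were at -0.34, -0.19 and 0.15.

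Sulfur and purine genes gave a few rises. MET8 (YBR213W), which makes the sirohaem cofactor of sulfite reductase, read 16.4, 21.2 and 31.9 in control and 161.2 and 132.1 with galacturonic acid. MHT1, which methylates homocysteine from S-methylmethionine, went from 55.2, 54.2 and 33.4 to 158.6 and 247.4, and the galactose arrays read it at 174.1 and 148.2. These were 2 of 26 tested genes, with a median of 0.25. Without the galactose arrays 5 rose and 1 fell, with SUL2, a sulfate permease, CYS3 and SAM1 added. In that fit 1.93% of all tested genes rose and 2.97% fell. SSU1 (YPL092W), the sulfite exporter, fell from 716.6, 384.2 and 432.4 to 111.9 and 130.8. IMD2 (YHR216W), IMP dehydrogenase of guanine nucleotide synthesis, rose from 152.9, 243.8 and 144.1 to 931.7 and 1210.4 (log2 2.60 ± 0.39, limma adjusted p = 0.0177). Its homologues IMD3 and IMD4 were at 1.07 and 1.28, and as the family is closely related its probes may share signal. Of 15 purine genes 1 rose, and 3 without the galactose arrays, with a median of 0.49.

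Phosphate, metal and vitamin genes moved singly. PHO84 (YML123C), the high-affinity phosphate transporter, read 15.5, 14.7 and 10 in control, 86.1 and 62.5 with galacturonic acid and 8.1 and 8.4 with galactose. It was the only call among 15 tested phosphate genes, whose median was 0.15, and PHO89, PHO81 and VTC3 were at 0.67, 0.68 and -0.07. CTR3 (YLR411W), a high-affinity copper transporter, fell from 854.5, 1014.7 and 747.3 to 202 and 160.2 (log2 -2.27 ± 0.29, adjusted p = 0.00881). The galactose arrays, at 948 and 881.6, lay within the control range. ZPS1, a zinc-regulated surface protein, fell by 1.84 ± 0.31 and lies next to HPF1 on chromosome XV. BIO5, which imports a biotin precursor, fell from 53, 45 and 55.6 to 17.3 and 20.8. PCA1, a metal-exporting ATPase, fell by 2.04 ± 0.42. No gene of the 16 tested for iron passed with limma, with 1 at an unadjusted p under 0.05.

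Several detoxifying reductases fell. GRE2 (YOL151W), a methylglyoxal reductase induced by osmotic and oxidative stress, read 502.7, 476.9 and 411.7 in control and 60.3 and 77.5 with galacturonic acid (log2 -2.76 ± 0.30, limma adjusted p = 0.00509). The aldo-keto reductase YJR096W went from 251.4, 499.7 and 290.1 to 68.6 and 78.4. These 2 were called of 8 tested reductases with a median of -0.48, and the aldose reductase GRE3, YPR1 and GCY1 lay between -0.58 and 0.66. GTT1 (YIR038C), a glutathione transferase, fell from 1039.8, 1018.6 and 1319.4 to 372.7 and 282.7. ZTA1, a quinone oxidoreductase, went from 360.1, 258 and 391.8 to 74.4 and 82.8. The old yellow enzyme OYE3 fell by 1.80 ± 0.34 and the peroxiredoxin TSA2 by 2.02 ± 0.40. Both galactose arrays also read GRE2, GTT1, ZTA1, OYE3 and TSA2 below every control array, but not YJR096W. GTT1, OYE3 and TSA2 were the 3 calls among 27 redox genes, with a median of -0.39. Of the 27, 16 read below every control array and 2 above, against 21.9% and 20.2% of all tested genes. The oxidative stress activator YAP1 was at -1.16 ± 0.31 (adjusted p = 0.132).

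At the cell surface HPF1 (YOL155C), a heavily mannosylated wall protein known for reducing haze in wine, read 4576.2, 3474.5 and 4948 in control, 152.9 and 189.9 with galacturonic acid and 2066.1 and 4572.4 with galactose. It fell 25.1-fold (log2 -4.65 ± 0.39, limma adjusted p = 0.00252). A probe set annotated to both HPF1 and its relative CSS1 gave a mean of 4776 in control and 131 with galacturonic acid, so the relative's part in the signal is uncertain. CWP1, a mannoprotein of the birth scar, went from 170.4, 234.9 and 163.3 to 28.8 and 37.7. With SPS100 these were the 3 falls among 28 wall genes, whose median was -0.11. The wall proteases YPS3 and YPS6 rose, YPS3 from 102.8, 91.5 and 112.6 to 312.9 and 285.7. YPS6 lies next to GTT1, which fell. TPO2 (YGR138C), an exporter of polyamines that is also linked to acetic acid tolerance, rose from 14.6, 29.8 and 54.9 to 429.5 and 352.9 (log2 3.76 ± 0.64, adjusted p = 0.0285), and it was the only call among 15 exporters, with TPO1 and PDR12 at 0.56 and 0.39. Of 13 weak acid genes of the Haa1 regulon TPO2 rose and GRE1 fell, and HAA1 itself was at -0.12.

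Some called genes encode regulators. SFG1 (YOR315W), a transcription factor that promotes filamentous growth, read 17.7, 27.4 and 10.7 in control and 183.7 and 220.7 with galacturonic acid. It was the only call among 16 tested genes of daughter-cell separation and filamentation, where FLO11, TEC1 and CTS1 were at 0.54, 0.81 and -0.49. NRG2 (YBR066C), a repressor of glucose-repressed and invasive growth genes, fell from 281.6, 463 and 567.3 to 82.3 and 109.4. TOS8, a homeodomain protein, fell from 222.3, 272.1 and 349 to 52.2 and 49.2, and CRF1, a corepressor of ribosomal protein genes, from 79.8, 102.4 and 112.8 to 10.7 and 14.7. SDP1, a phosphatase of the cell wall integrity kinase Slt2, ended below the floor, at least 4.66-fold lower. PRR2, a protein kinase linked to pheromone signalling, fell by 3.05 ± 0.61 with galactose arrays at 171.6 and 827.2. None of 35 activators and repressors of the pathways above, listed after their values were seen, passed with limma. None passed in the fit without galactose arrays either, and 2 had an unadjusted p under 0.05 in the main fit. Their differences ran from -1.16 to 1.26 with a median of -0.01. SFG1, NRG2, TOS8 and CRF1 were not on that list. Of all tested genes 0.881% rose and 1.44% fell, so a list of 35 with none called is near that share. No contrast with the called regulators is read from it.

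Dim genes made up much of the remaining rises. KTD1, a defence gene against killer toxin, read 8.7, 12.1 and 11.8 in control and 42.1 and 63.6 with galacturonic acid. BSC4, a gene thought to have arisen from non-coding sequence, YHL042W, NUC1, NAT4, COS12, SNR128 and YOL163W rose from below the floor by at least 1.95-fold to 3.28-fold. COS10 and COS12 belong to a family of close copies near chromosome ends, so which copy gave the signal is uncertain. DIA1, linked to invasive growth, rose by 2.15 ± 0.40 and HTC1 by 2.25 ± 0.35, while OSW2, of the spore wall, and the mannosyltransferase gene MNT4 rose by 1.52 and 1.13. In KTD1, MNT4, COS10 and the genes that rose from below the floor, at least 1 control array was raised to it, which limits the size of the difference.

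The other falls covered scattered functions. PNS1, a protein related to choline transporters, read 180.1, 150.1 and 71.7 in control and 13.2 and 25.7 with galacturonic acid. PLB2, a phospholipase B, went from 477.5, 374.5 and 254.5 to 91 and 101.4, and ATG34, a receptor of selective autophagy next to PHM7 on chromosome XV, from 530.9, 539.2 and 491.4 to 125.5 and 187.5. ICS2, whose loss makes cells copper-sensitive, read 211.4, 242.2 and 195.7 against 40.9 and 41.9. In these 4 genes the groups did not overlap, as in all 121 called genes. YCL048W-A, YER121W, YMR090W, YML131W, YKL107W, YPT10 (a Rab GTPase), YJL163C, YGR130C, YIR016W, YGR127W, AIM17, YOL153C and IRC15 (a microtubule-associated protein) fell, with log2 differences from -3.23 to -1.47. CIS1 fell at least 3.75-fold. Among rises not yet named, BOP3, YGL204C and the ATP synthase assembly factor ATP10 were higher by 1.76, 1.46 and 1.27, and MIX23, a protein of the mitochondrial intermembrane space, by 1.63.

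The ribosome and glycolysis lists held no calls. None of the 81 tested cytosolic ribosomal protein genes, 31 ribosome biogenesis genes or 20 glycolysis genes passed, and none had an unadjusted p under 0.05 in limma's test. Their medians were -0.01, 0.23 and 0.05. The hexose kinase HXK2 was at 1.03, PDC6 at -1.50 and RPS7A at 1.39. None of 36 amino acid synthesis genes under Gcn4 and none of 20 cyclin and cell cycle genes passed, with 4 and 2 at an unadjusted p under 0.05. Such a p was found for 651 of all 5220 tested genes, so these 2 counts are near that share. The cell cycle list had a median of 0.15. Ergosterol synthesis had no call and 10 of 28 genes at an unadjusted p under 0.05. Without the galactose arrays 6 fell, against 2.97% of all tested genes. Of these, ERG3, the C-5 desaturase, and ERG25, a C-4 methyl oxidase, were at -1.47 and -1.46. The others were ERG24 at -1.46, ERG5 at -1.42, ERG6 at -1.07 and ERG2 at -0.85. These null results do not show equal levels, since the standard error had a median of 0.37 on the log2 scale over the tested genes.

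At the threshold the order of genes was close. MNT4, YDL218W and MIX23 lay just inside, with adjusted p of 0.0486, 0.0487 and 0.0496, and RGI1, SIP4 and BDH2 just outside, at 0.0521, 0.0525 and 0.0538. YDL218W shows why a large difference can sit at the edge: control arrays read 161.8, 562.7 and 721.3, galacturonic acid arrays 7.7 and 19.9, and galactose arrays 173.8 and 17.0. RGI1, a gene of energy metabolism under respiratory growth, read 363, 420.1 and 339.1 against 95.7 and 88.3, with 289.8 and 772.3 on the galactose arrays. Among the 121 called genes the 2 galacturonic acid arrays differed by more than 1 on the log2 scale in 8 and the control arrays spanned more than 1 in 18. For 5 called genes with other single-gene probe sets, 27 of 28 tested ones had the same sign as the one used and 10 passed. Most of them belong to the Ty3 frame YGR109W-B, with 21 of those tested and 8 of those that passed. The other set of MFA1 and a set of IMD2 passed, and no other tested set of ICS2 or COS10 did.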

How the data were processed

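RNA of chemostat cultures was hybridised to 7 one-colour Affymetrix yeast arrays. The authors deposited linear intensity values, 1 for each probe set, made with GCOS 1.2 per the submitters' processing notes. The signal algorithm is not given in the sources used here. In all, the 9335 probe sets include 60 controls. Of the rest, 6504 name 1 gene in the platform annotation, 328 several and 2443 none. All 5656 genes matched the RefSeq table of assembly R64, used only for names and neighbours, and no coordinates are given because no build is named.

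Values under 12 were set to 12 before log2 was taken. In R 4.3.3, limma 3.58.1 fitted group means to the 7 arrays (lmFit and trended eBayes, 4 residual degrees of freedom), with Benjamini-Hochberg adjustment over the 5220 genes and a threshold of 0.05. This code was tested on simulated data. Groups came from the labelled treatment. A galactose source label names the acid at the galactose dose, while titles and treatment fields name galactose, which was used. Replicate numbers name an array only.

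Genes named were drawn from those past the threshold and the 3 genes on each side of it. They were also drawn from both genes of each pair, and from up to 4 members by size and the smallest p of each of 35 lists. Not every gene of these sets is named. Others, among them the 35 regulators, were chosen after their values were seen. Members and lists were chosen with earlier results of these data known. Alternatives covered scaling, floor, filter, probe sets, variance model, arrays in the fit, a replicate block and the threshold. The number of arrays limits the precision.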

Additional observations from a re-analysis of the deposited data

Results flagged for a closer look

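Signal outside the gene-level comparison was also higher with galacturonic acid than in control, in a fit of all probe sets above the floor with the same limma model. Probe sets annotated to several genes held 4 for the retrotransposon Ty3 (YIL082W-A and YGR109W-B), with log2 differences of 2.91, 2.26, 2.18 and 2.18. The first of them read 16.6, 21.8 and 34.6 in control, 229.4 and 133 with galacturonic acid and 24.8 and 5.3 with galactose. The others read from 0.2 to 2.9 with galactose, each below all of its control arrays. Another, shared by the yapsin genes YPS6 and YPS5, was higher by 1.70, and one shared by YNR065C, VTH1 and VTH2, related to vacuolar sorting receptors, by 1.83. In the other direction, a probe set shared by DDI2 and DDI3, which encode cyanamide hydratases, had a mean of 94.5 in control and 0.65 with galacturonic acid (adjusted p = 0.00996), and the galactose arrays read it at 130.9 and 116.1.

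Among 772 tested probe sets that the annotation pairs with no gene, 13 were higher with galacturonic acid and none lower, with log2 differences of 1.24 to 3.32. The brightest had a mean of 458 in control and 2791 with galacturonic acid. What these probe sets read is not known here.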

How the results depend on the processing

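Most changes of scaling left the counts of 46 higher and 75 lower genes within 1.5 times. A filter at the median level gave 12 higher, a floor of 50 gave 21 lower, and no filter gave 26 lower. An adjusted p under 0.01 left 11 and 12. Array weights gave 347 and 427, and the fit of control and galacturonic acid arrays alone 101 and 155. Leaving out 1 array gave 1 to 119 higher and 0 to 168 lower genes, the largest counts without a galactose array (119 and 168 without the first, 108 and 156 without the second). A single galacturonic acid array left in this way was taken to vary as the remaining groups do. Among the 263 genes refitted under the alternatives, no difference reversed where the gene was called in the main fit or in the alternative. Sign changes in genes called in neither fit were not counted. A floor of 50 made 14 of the 121 equal to 0 and kept 33 calls. The median difference over all genes stayed between -0.06 and 0.03 in every fit. With the replicate number as a block 1 gene rose, DAK2, and 0 fell. Those numbers come partly from deposit order, so they are not taken to pair the cultures. Deviations from the group means cannot show a pairing, as those of the 2 galacturonic acid arrays mirror each other. Control array 1, for example, correlated at -0.149 with the first and 0.149 with the second. Levels at or below the floor on every array of a group limit the size of 13 rises and 3 falls, and on part of a group that of 10 rises and 6 falls.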

Other observations

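Gene order, taken from the RefSeq table and examined after the values were seen, showed 7 adjacent pairs in which both genes were called, 5 of them moving the same way. Of all tested genes 0.881% rose and 1.44% fell. How many such pairs scattered calls would give was not computed, so no clustering is read from these counts. They were GAL7 with GAL10, GAL10 with GAL1, YNL195C with YNL194C, HPF1 with ZPS1 and PHM7 with ATG34. In 2 pairs the neighbours moved apart: YPS6 rose beside GTT1, and MF(ALPHA)1 rose beside UIP4.

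Genes near chromosome ends appeared among the calls. The outermost 10 protein-coding genes of each end held 9 of the 46 rises (19.6%) and 5 of the 75 falls (6.67%), against 154 of the 5220 tested genes (2.95%). The rises there were COS10, COS12, DIA1, IMD2, MHT1, MIX23, YHL042W, YOL163W and YPS6, and the falls were GTT1, JEN1, MSC1, PCA1 and YML131W. Genes at chromosome ends often belong to families of close copies whose probes may share signal, and its part in these counts was not tested.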
